A study of Mus musculus with 6 samples.

Results

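The 7 genes described here, Gas5, Snhg1, Snhg3, Snhg5, Snhg6, Snhg8 and Snhg12, are small nucleolar RNA (snoRNA) host genes: they carry snoRNAs in their introns and encode no known conserved protein in their exons. They were taken by symbol from the deposited count table, where all 7 had a row among 23951 genes. The study sequenced total RNA from haematopoietic stem cells (HSCs) of the mouse fetal liver, in 3 knockout (KO) libraries and 3 wild type (WT) libraries, all of the C57BL/6 strain. KO cells are labelled as knockouts of RISP and WT cells as RISP wild type. RISP is the Rieske iron-sulfur protein of respiratory complex III, encoded by Uqcrfs1. The labels used here give no Cre driver, embryonic age, sex or number of embryos, and the p-values below therefore reflect the variation among these 6 libraries, part of which may be technical. The comparison of KO with WT addresses which transcripts differ in HSCs that lack this subunit.

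Transcription of a snoRNA host gene gives 2 kinds of product. The snoRNAs are trimmed from the excised introns and guide chemical modification or processing of ribosomal and other RNAs, either as box C/D snoRNAs, which guide methylation of riboses, or as box H/ACA snoRNAs, which guide pseudouridylation. The spliced exons of many such hosts begin with a 5′ terminal oligopyrimidine (5′TOP) tract, as the mRNAs of ribosomal proteins do, and are loaded onto ribosomes. Their reading frames are short and end far upstream of the last exon junction, so that translation exposes the RNA to nonsense-mediated decay (NMD). In cultured mammalian cells such host RNAs accumulate when translation or NMD is blocked. Gas5 was named for its accumulation in growth-arrested cells.

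The sequence around the annotated start of each host with an entry is shown because a pyrimidine tract at the start is a known feature of the class. The 6 members with an entry in the RefSeq promoter table (GRCm38.p6) were matched by symbol, and Snhg6 was not matched. Each line gives the 40 bases before and the 40 bases from the annotated start on the strand of the gene, with the longest run of C and T that begins within 10 bases of the start in capitals.
Gas5, chr1:161035126-161035205, plus strand: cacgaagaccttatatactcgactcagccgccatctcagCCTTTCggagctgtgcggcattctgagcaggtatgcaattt
Snhg1, chr19:8723447-8723526, plus strand: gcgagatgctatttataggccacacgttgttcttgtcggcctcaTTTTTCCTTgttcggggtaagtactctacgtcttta
Snhg3, chr4:132353647-132353726, minus strand: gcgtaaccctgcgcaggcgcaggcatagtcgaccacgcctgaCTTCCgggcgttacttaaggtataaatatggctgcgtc
Snhg5, chr9:88522858-88522937, minus strand: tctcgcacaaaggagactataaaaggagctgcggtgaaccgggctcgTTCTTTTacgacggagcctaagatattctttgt
Snhg8, chr3:123508297-123508376, minus strand: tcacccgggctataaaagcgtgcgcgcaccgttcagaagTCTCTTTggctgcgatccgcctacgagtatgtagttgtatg
Snhg12, chr4:132308638-132308717, plus strand: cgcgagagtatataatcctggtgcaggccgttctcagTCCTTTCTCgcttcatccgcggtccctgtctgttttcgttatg
Gas5 has a further annotated start upstream, at position 161034601, where the longest such run is 3 bases. A run of at least 6 pyrimidines began within 10 bases of 5 of the 7 annotated member starts (71.4%), against 22.2% of the 32851 starts in the table and 17.9% of 28 starts of protein-coding snoRNA hosts. Those protein-coding hosts include ribosomal protein genes, whose mRNAs are known 5′TOP mRNAs. The run count therefore misses known 5′TOP genes and does not decide which starts belong to the class. The letters TATAAA or TATATA, on either strand, stood within the 50 bases before 5 of the 7 member starts, against 4.47% of all starts. The letters TGATGNAA, the core of the CCAAT-enhancer and ATF composite element, were searched on both strands of the 300-base windows and were in 0 of the 7, against 3.97% of all windows. These matches are letters in a window around an annotated start and are not evidence of binding or of where transcription began in these cells.

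Most of the annotated transcripts have a short first reading frame that ends far upstream, as the class is known for. GENCODE M21 lists 34 spliced transcripts of the 7 members without retained introns. The reading frame that opens at the first ATG ran for a median of 25.5 codons and for 54 codons at most. In both transcripts of Snhg8 it was 1 codon long. No other class of transcripts was compared. In 27 of the 34 transcripts its stop codon lay more than 50 nt before the last exon junction, which is the textbook condition for NMD. This held for all 5 transcripts of Gas5, 9 of 10 of Snhg12, 4 of 5 of Snhg6, 3 of 4 of Snhg1, both of Snhg8, 2 of 3 of Snhg5 and 2 of 5 of Snhg3.

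The libraries held 14313927, 14590844 and 12020128 counts in KO replicates 1 to 3 and 10191354, 10943143 and 13189329 counts in WT replicates 1 to 3. Uqcrfs1, the targeted gene, had 60, 51 and 39 counts in the KO libraries and 771, 1320 and 791 in the WT libraries, as their labels say. The share of counts from Rn45s, the ribosomal RNA precursor, was 9.92%, 6.69% and 4.96% in KO replicates 1 to 3, below the 11.7%, 10.5% and 11.3% of WT replicates 1 to 3. Markers of HSCs were all detected, with 2385 to 2473 CPM (counts scaled to a common library size) summed over 10 genes in KO and 2584 to 3045 CPM in WT; 1 was higher and 4 were lower in KO. Of other cell types, 10 erythroid markers summed to 58.8 to 91.5 CPM in KO and 307 to 612 CPM in WT, with 6 of them lower in KO. Sums over 10 macrophage markers were 35.3 to 81.1 CPM in KO and 176, 78.4 and 948 CPM in WT replicates 1 to 3. Those over 6 endothelial markers were 190 to 227 CPM in KO and 423, 255 and 1052 CPM in WT replicates 1 to 3. WT replicate 3 was the highest library in both sums, and 0 genes of either list were called. Sums over 9 hepatoblast markers were 28.0 to 72.6 CPM in KO and 64.6 to 134 CPM in WT. Of 8 hepatoblast markers tested, 2 were lower in KO: Trf, and Ttr, which had 0 counts in each KO library and 108, 9 and 20 counts in the WT libraries. No gene of these lists was at 0 in all 6 libraries. In bulk RNA, fewer cells of a type and less RNA per cell cannot be told apart. The part of these markers and of the ribosomal RNA share in the results below was not tested.

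KO replicate 3 stood apart for the host genes. It had the highest level of the 6 libraries for 5 of the 7 members, KO replicate 2 for 1 member and WT replicate 2 for 1. It was also the library with the lowest share of Rn45s. The member levels summed to 245, 318 and 386 CPM in KO replicates 1 to 3, against 200, 224 and 213 CPM in WT replicates 1 to 3. The groups did not overlap in this sum. Gas5, whose own levels overlapped between the groups, gave the largest part of it in every library, and no background was taken for such a sum. The counts of members called, and each member fold change that moved by over 1.5 times or lost its call without KO replicate 3, are also given without it.

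Snhg6 and Snhg12 rose in KO HSCs, and no member fell. With counts scaled by TMM and tested with edgeR's quasi-likelihood test, a gene was called at a Benjamini-Hochberg adjusted p under 0.05 over the 12204 genes tested, which included all 7 members. The 2 members called higher stand beside 6.41% of all tested genes called higher, and the 0 called lower beside 4.99% called lower; 11.4% were called in either direction, or 1391 genes. At an unadjusted p under 0.05 there were 3 members, all with positive fold changes. The share of all genes at this unadjusted threshold was not taken, so member counts at it, here and below, have no background beside them. DESeq2 called 3 members higher and 0 lower, with 1790 of 12204 genes called in either direction. All 7 members had a positive log2 fold change (KO over WT), with a median of 0.70, against a median of -0.02 and 48.0% positive over all tested genes. The members were chosen with earlier results of these data known, so this contrast is a description and not a test. In 3 members, Snhg1, Snhg6 and Snhg12, every KO library was above every WT library, which held for 15.7% of all tested genes. Without KO replicate 3, edgeR called 0 members at the adjusted threshold and 2 had an unadjusted p under 0.05, while 833 of 12588 genes were still called. The fold change of Snhg8 was then -0.14, so 6 of the 7 members were positive.

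**Figure D1:**
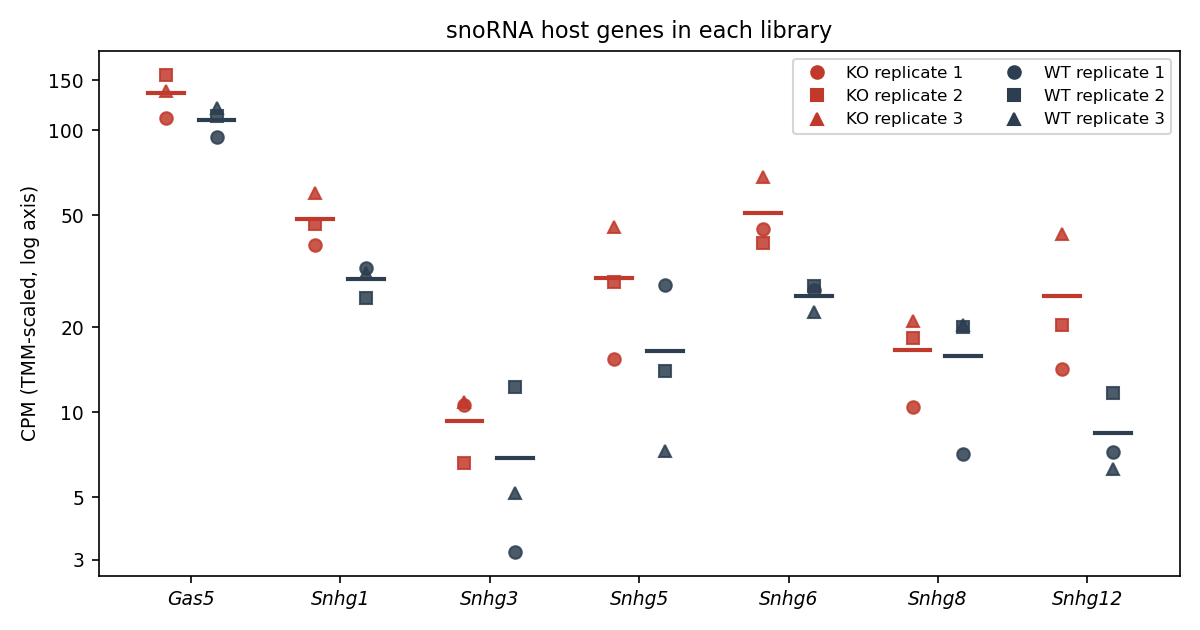
Levels of the 7 host genes in each library, in CPM on a log axis. Points are single libraries, KO in red to the left of WT in dark blue, with a symbol for each replicate number, and bars are group means. The KO and WT points of Snhg1, Snhg6 and Snhg12 do not overlap, and KO replicate 3 is the highest point for 5 of the 7 genes.

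The box C/D hosts are described first. Snhg6, whose intron holds Snord87, had 620, 599 and 864 counts in KO replicates 1 to 3, against 270, 302 and 293 counts in WT replicates 1 to 3. Its level was 44.7, 39.9 and 68.1 CPM in the KO libraries and 27.1, 28.1 and 22.6 CPM in the WT libraries. All KO libraries lay above all WT libraries, and KO replicate 3 was the highest. The mean was 50.9 ± 15.1 CPM in KO and 25.9 ± 2.93 CPM in WT (SD, n = 3 each), with a log2 fold change of 0.97 and a standard error (SE) of 0.24 (edgeR, adjusted p = 0.0115). Without KO replicate 3 the log2 fold change was 0.71 and the adjusted p was 0.132. In RPKM, which the authors scaled by gene length, Snhg6 had 206, 184 and 334 in KO and 122, 131 and 105 in WT. For the members, counts and RPKM were not related by 1 length per gene in all libraries, so RPKM stands here as a separate deposited measure.

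Snhg1, first described as the host of the U22 snoRNA (Snord22), had 544, 699 and 757 counts in KO and 325, 274 and 405 counts in WT. These were 39.2, 46.5 and 59.7 CPM in the KO libraries and 32.6, 25.5 and 31.2 CPM in the WT libraries. The lowest KO library was above the highest WT library, with the gap between KO replicate 1 and WT replicate 1 smaller than the spread within either group. The log2 fold change was 0.70 with an SE of 0.23, and the adjusted p of 0.0507 in edgeR was just outside the threshold. Snhg1 passed with DESeq2 (adjusted p = 0.0372), with limma on RPKM (0.0427 and 0.0431), with length offsets (0.0490), with no filter on low counts (0.0351) and without KO replicate 1 (0.0431). It thus passed in 5 of 10 alternative fits over all libraries and in 1 of 6 that left out a library. In the other 5 fits over all libraries the adjusted p was 0.0523 with RLE size factors, 0.0554 with the Y-linked covariate, 0.0583 with upper-quartile factors, 0.0613 with limma-voom and 0.0656 with a replicate block, and without KO replicate 3 it was 0.264. RPKM values were 165, 191 and 227 in KO and 132, 108 and 130 in WT.

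Gas5 carries several box C/D snoRNAs, and its spliced RNA is also known as a decoy for the glucocorticoid receptor. It was the most counted of the 7 members, with 1534, 2361 and 1747 counts in KO and 941, 1206 and 1558 counts in WT. Scaled for library size, these were 111, 157 and 138 CPM in KO and 94.3, 112 and 120 CPM in WT. KO replicate 1 lay among the WT libraries and the other KO libraries above them. The mean was 135 ± 23.4 CPM in KO and 109 ± 13.2 CPM in WT (SD, n = 3 each). The log2 fold change of 0.31, SE 0.15, did not pass (edgeR, adjusted p = 0.209), and it did not pass in any of 16 alternative fits, where it ranged from 0.19 to 0.44.

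Snhg5, the host of the U50 snoRNAs, had 215, 434 and 573 counts in KO and 281, 151 and 95 counts in WT. Its levels of 15.5, 28.9 and 45.2 CPM in KO and 28.2, 14.1 and 7.32 CPM in WT spread more within each group, relative to the group mean, than those of Snhg6 or Gas5. WT replicate 1 was close to KO replicate 2, so the groups overlapped. The log2 fold change was 0.86 with an SE of 0.49 (edgeR, adjusted p = 0.313). Leaving out 1 library moved it both ways: it was 0.43 without KO replicate 3 (adjusted p = 0.679), 0.50 without WT replicate 3 (0.505) and 1.48 without WT replicate 1 (0.0476), the 1 of 6 such fits that passed.

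Of the hosts of box H/ACA snoRNAs, Snhg12 had the largest fold change of all 7 members. It carries Snora16a, Snora44 and Snora61, and the C/D snoRNA Snord99. Counts were 197, 307 and 543 in KO replicates 1 to 3 and 72, 126 and 82 in WT replicates 1 to 3. Its level was 14.2, 20.4 and 42.8 CPM in the KO libraries and 7.22, 11.7 and 6.32 CPM in the WT libraries. Every KO library was above every WT library, and KO replicate 3 was far above the other KO libraries. The mean was 25.8 ± 15.1 CPM in KO and 8.42 ± 2.90 CPM in WT (SD, n = 3 each), a ratio of 3.07, with a log2 fold change of 1.62 (SE 0.41; edgeR, adjusted p = 0.0133). Without KO replicate 3 the log2 fold change was 1.04 (adjusted p = 0.216), and without WT replicate 1 it was 1.52 (adjusted p = 0.0554). RPKM values were 36.6, 50.7 and 94.7 in KO and 18.2, 29.0 and 15.8 in WT.

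Snhg3, which carries the U17 snoRNAs Snora73a and Snora73b needed for cleavage of the ribosomal RNA precursor, was the least counted member. It had 147, 99 and 138 counts in KO and 32, 132 and 67 counts in WT. The levels were 10.6, 6.59 and 10.9 CPM in KO and 3.21, 12.3 and 5.17 CPM in WT. WT replicate 2 was the highest of all 6 libraries, and the log2 fold change of 0.44 was smaller than its SE of 0.55 (edgeR, adjusted p = 0.683). It was 0.10 without WT replicate 1 (adjusted p = 0.951), 0.27 without WT replicate 3 (0.852) and 1.16 without WT replicate 2 (0.292), and it passed in none of the 6 fits that left out a library.

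Snhg8, the host of Snora24, showed the smallest fold change of the 7. Counts were 145, 275 and 267 in KO and 71, 216 and 264 in WT, or 10.5, 18.3 and 21.1 CPM in KO and 7.12, 20.1 and 20.4 CPM in WT. Replicate 1 was the lowest library in both groups, and the other libraries of both groups lay together between 18.3 and 21.1 CPM. The log2 fold change was 0.06 with an SE of 0.41 (edgeR, adjusted p = 0.947), and its sign turned to -0.11 on the RPKM scale and to -0.14 without KO replicate 3.

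**Figure D2:**
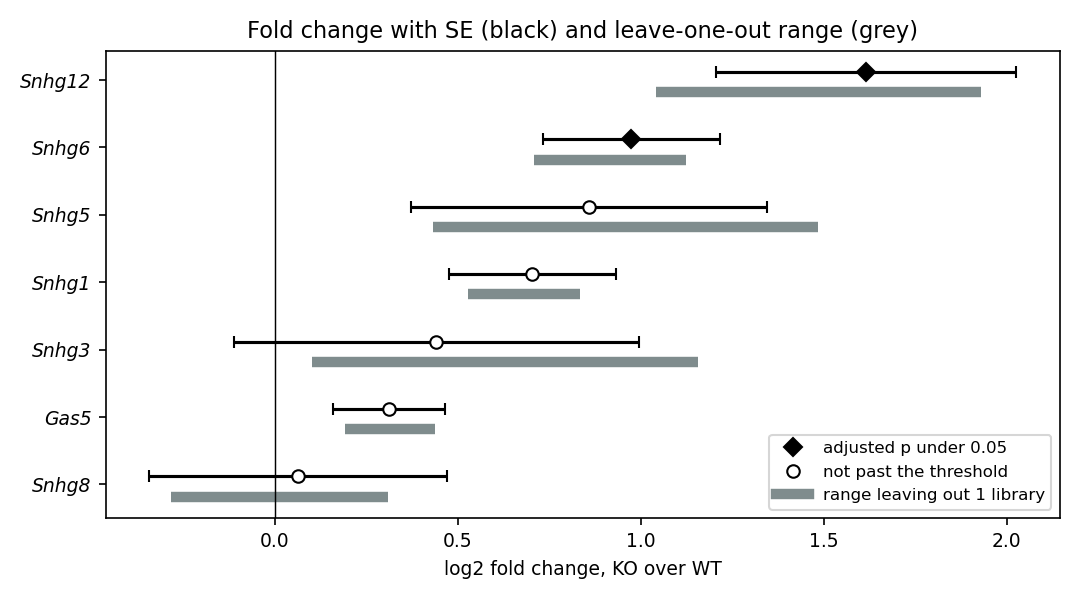
Log2 fold changes of the 7 host genes, KO over WT, in order of size. Points are edgeR estimates with their SE in black (diamonds passed the adjusted threshold of 0.05), and grey bars span the estimates when each of the 6 libraries was left out in turn. The grey bar of Snhg8 crosses 0, and those of the other 6 genes stay above it.

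In the deposited RPKM, Snhg6 and Snhg1 had the highest means of the 7 hosts. In CPM the order differed, with WT means of 109 for Gas5, 29.8 for Snhg1 and 25.9 for Snhg6. Median GENCODE transcript lengths were similar, at 502 nt for Gas5, 550 nt for Snhg1 and 559 nt for Snhg6. The lengths behind the RPKM were not given, so abundance per length cannot be ranked here. On the RPKM scale the means in KO were 242 for Snhg6, 194 for Snhg1, 93.0 for Gas5, 60.7 for Snhg12, 54.0 for Snhg3, 46.9 for Snhg8 and 37.6 for Snhg5. In WT the mean RPKM was 119 for Snhg6, 123 for Snhg1, 72.9 for Gas5, 21.0 for Snhg12, 40.0 for Snhg3, 53.8 for Snhg8 and 20.1 for Snhg5. Snhg6 and Snhg1 overlapped each other over libraries in both groups, and both lay above every other member in every library. The ranges of Snhg12, Snhg3, Snhg8 and Snhg5 overlapped one another in KO, and those of Snhg12 and Snhg5 overlapped in WT, so the order among them is within their spread. By its mean, Snhg12 stood above Snhg3 and Snhg8 in KO and below both in WT.

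The members did not vary together to the same extent. In KO replicate 3 the log2 ratio of CPM to the WT mean was 2.35 for Snhg12, 1.45 for Snhg5, 1.39 for Snhg6 and 1.00 for Snhg1, but 0.34 for Gas5 and 0.41 for Snhg8. KO replicate 1 ranged from -0.60 for Snhg8 to 0.79 for Snhg6. Within WT, replicate 1 held the lowest value of the 6 libraries for 3 members and replicate 3 for 3 others, so no single WT library was low throughout. The 5 genes outside the list most like it, by Pearson correlation over the 6 libraries with the mean standardised log2 CPM of the members, were Zfp605 (r = 0.996), Ccdc66 (0.993), Pop4 (0.993), Arid4a (0.993) and 1500012F01Rik (0.987), among 9065 genes with at least 10 CPM on average. The points share the 2 groups and the libraries' depth and scaling. Zfp605 encodes a zinc finger protein, Pop4 a subunit of RNase P, and 1500012F01Rik is itself a noncoding snoRNA host. Zfp605 had 16.4, 25.1 and 47.2 CPM in KO and 5.81, 11.5 and 7.40 CPM in WT, the same order of libraries within KO as Snhg12 but not within WT. Because Zfp605 was picked for its correlation with the member mean, this order adds no further likeness.

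**Figure D3:**
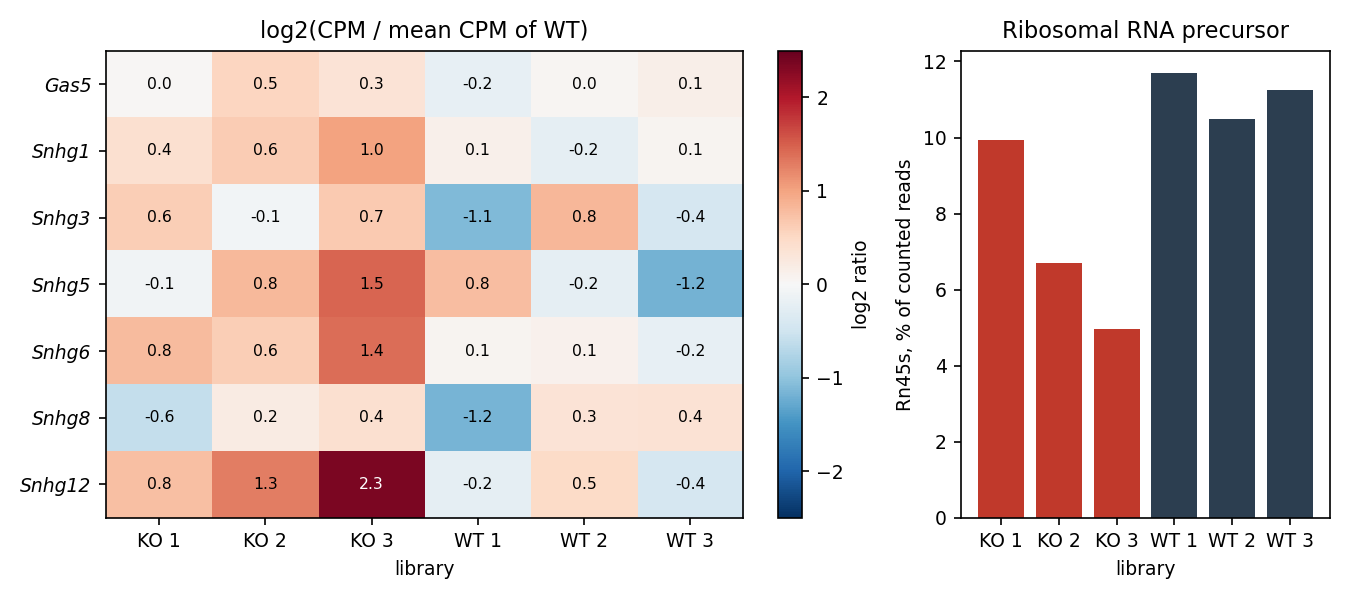
Left, log2 ratio of each host gene's CPM to its WT mean in each library, with KO libraries left of WT libraries. Right, the share of counts from the ribosomal RNA precursor Rn45s, in percent of all counts per library. KO replicate 3 has the strongest red column, led by Snhg12 at 2.35, and the lowest Rn45s share at 4.96%.

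Genes beside and across the hosts were read next, because counts of overlapping genes cannot be told apart where the strand setting of the counting is not given. In RefSeq the members had 14 neighbours, of which 10 were tested. Slc3a2, which encodes the heavy chain of several amino acid transporters and lies 118 bp from Snhg1, was the 1 neighbour called. It rose to 255, 269 and 228 CPM in KO replicates 1 to 3, against 94.9, 117 and 133 CPM in WT replicates 1 to 3, a log2 fold change of 1.12 (SE 0.13; edgeR, adjusted p = 1.27e-05). The neighbours of the 2 called hosts were either not called or not tested. Trnau1ap, beside Snhg12, had a log2 fold change of 0.32 (adjusted p = 0.559), and Mcmdc2, beside Snhg6, had 1.41 with an SE of 1.29 at 2.48 CPM in KO and 0.933 CPM in WT. In GENCODE M21, Snhg6 shares 127 bp with Mcmdc2 and Gas5 shares 428 bp with Zbtb37, both on opposite strands. Zbtb37 had a log2 fold change of 0.01 (SE 0.35.) Of the 5673 bp GENCODE span of Snhg3, 5592 bp lie within Rcc1 on the same strand. In RefSeq, Rcc1 lies 6183 bp from Snhg3 instead. Whether the counts of Snhg3 include reads shared with Rcc1 thus depends on the annotation counted against. Rcc1, a regulator of the Ran GTPase, had a log2 fold change of 0.18 (edgeR, adjusted p = 0.712). Among the remaining tested neighbours, log2 fold changes were 0.34 for Wdr74, -0.22 for Phactr4, -0.08 for Syncrip and 0.70 for Zfp949, none past the threshold.

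The snoRNAs inside the hosts gave few counts, and neither of the 2 that could be tested was called. The sequences of 2 of them are shown because their hosts rose in KO. In Snord87, capitals mark the C box (TGATGA) and the D box (CTGA), and in Snora16a they mark the ACA box near the 3′ end. Both are from GENCODE M21 transcripts.
Snord87, in Snhg6: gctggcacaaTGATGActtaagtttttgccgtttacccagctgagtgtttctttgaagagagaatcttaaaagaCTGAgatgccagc
Snora16a, in Snhg12: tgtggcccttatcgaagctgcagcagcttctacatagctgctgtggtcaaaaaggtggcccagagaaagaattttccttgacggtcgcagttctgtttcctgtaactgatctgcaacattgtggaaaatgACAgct
Of 28 snoRNAs listed for the 7 hosts, 8 had a row in the table and 2 had enough counts to be tested. Snord22, in Snhg1, had 29, 102 and 86 counts in KO and 33, 84 and 75 counts in WT, with a log2 fold change of -0.11 (SE 0.67; edgeR, adjusted p = 0.945). Snora16a had 2, 28 and 10 counts in KO and 7, 13 and 9 counts in WT (log2 fold change 0.11, SE 1.46). The groups of both overlapped. Snord87 had 0, 3 and 1 counts in KO and 9, 4 and 8 counts in WT. Every KO library was below every WT library, the opposite direction to its host Snhg6, but at these few counts Snord87 was not tested. Snora44 had 44 counts in KO replicate 3 and 0 in the other KO libraries, against 1, 0 and 2 counts in WT. Snora24 and Snora61 had 0 counts in every library, and Snord47 and Snord99 had counts in 1 WT library each. For Snora24 the 2 deposited measures disagreed, with RPKM of 55.8, 0.398 and 90.0 in KO and 138, 9.44e-05 and 76.4 in WT. The RPKM of Snora61 was 0 throughout. Over all 105 snoRNA rows, 40 were at 0 in every library, and of the 15 tested edgeR called 0, with 0 at an unadjusted p under 0.05; DESeq2 and limma-voom also called 0. The summed snoRNA level was 157, 118 and 89.9 CPM in KO replicates 1 to 3 and 135, 137 and 146 CPM in WT replicates 1 to 3. Much of this sum was Snord15b, with 99.2, 48.0 and 25.2 CPM in KO and 66.8, 54.5 and 61.8 CPM in WT. The sum is therefore not a level of snoRNAs as a class.

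Among noncoding hosts outside the 7 members, 1 of the 4 that were tested was called, 1500012F01Rik, which RefSeq names Zfas1. It rose to 30.3, 48.5 and 57.2 CPM in KO replicates 1 to 3, against 17.6, 28.6 and 21.4 CPM in WT replicates 1 to 3, with no overlap between the groups. The log2 fold change was 1.01 with an SE of 0.27 (edgeR, adjusted p = 0.0190). It missed the threshold without KO replicate 2 (adjusted p = 0.0866), KO replicate 3 (0.148) or WT replicate 1 (0.0810). Snhg7 had 5.05, 6.32 and 11.1 CPM in KO and 1.20, 1.49 and 4.01 CPM in WT, and its log2 fold change of 1.73, SE 0.74, did not pass (adjusted p = 0.143). Snhg9 had a log2 fold change of 1.79, SE 0.79 (adjusted p = 0.160), and lies wholly within Rps2 on the opposite strand. Snhg4 had -0.96, SE 0.56 (adjusted p = 0.305), the 1 negative value of the 4. Snhg10, Snhg11 and Snhg18 had too few counts to be tested.

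Protein-coding genes that host snoRNAs moved in both directions. Of 33 tested, 9 were higher and 4 lower in KO, with a median log2 fold change of 0.07. The hosts that encode ribosomal proteins, known for 5′TOP mRNAs that are stable when translated, had a median of -0.02. Of these 18, 1 was higher and 2 were lower. The other 15 hosts had a median of 0.42, with 8 higher and 2 lower. They were split off by the protein they encode and not by 5′TOP status. Beside the 8 higher genes they include Eef2 (0.11), Eef1b2 (-0.01) and Gnb2l1 (-0.007), none of them called, and Tpt1 (-0.28), called lower. This division was made after the values were seen. The hosts with the smallest p were Ncl, which encodes nucleolin, at 0.74 (SE 0.08), Nop56, a core protein of C/D snoRNPs, at 0.83 (SE 0.11), Rpl4 at 0.49 (SE 0.09) and Rabggtb, a subunit of the Rab geranylgeranyl transferase, at 1.51 (SE 0.28). All 4 passed in every fit that left out 1 library. The 13 calls fell to 6 without KO replicate 2 and to 8 without KO replicate 3.

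The 5′TOP mRNAs that host no snoRNA also moved in both directions. Of 15 tested, 2 were higher and 2 lower, with a median of -0.18. Eif4b, which encodes a translation initiation factor, had a log2 fold change of 0.52 (SE 0.10), and Npm1, encoding nucleophosmin, had 0.28 (SE 0.09). Vim, encoding vimentin, had -0.34 (SE 0.10) and Eif3e, a subunit of initiation factor eIF3, had -0.36 (SE 0.12). Eif4b passed without any 1 library, whereas Npm1, Vim and Eif3e each passed in 1 of the 6 such fits, and the 4 calls fell to 1 without KO replicate 2, WT replicate 1 or WT replicate 2 and to 2 without KO replicate 1 or 3.

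The genes that act on these RNAs were read from lists of decay factors, snoRNP proteins and regulators of 5′TOP translation. Of 13 NMD and decay factors, 5 were higher and 0 lower in KO, with a median of 0.28. Smg1, the kinase that phosphorylates Upf1, had 291, 341 and 411 CPM in KO and 167, 159 and 198 CPM in WT, a log2 fold change of 0.99 (SE 0.13; edgeR, adjusted p = 3.78e-05). Upf1, the helicase at the centre of NMD, had 302, 305 and 323 CPM in KO and 202, 220 and 218 CPM in WT (0.54, SE 0.11, adjusted p = 0.00216). Smg5 (0.79, SE 0.19), Upf3b (0.76, SE 0.22) and Upf3a (0.63, SE 0.19), the last named after its value was seen, were the other calls. Several mRNAs of NMD factors, Smg1, Smg5 and Upf3b among them, are known to be NMD targets themselves. The 5 calls fell to 2 without KO replicate 3 and to 3 without KO replicate 2 or WT replicate 3, with Smg5 at an adjusted p of 0.0649 and Upf3b at 0.175 without KO replicate 3. Smg1 and Upf1 passed without any 1 library.

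Of 14 snoRNP proteins and assembly factors, 6 were higher and 1 lower, with a median of 0.24. Nop56, Nop58 and Dkc1 are also among the protein-coding hosts. The highest by p were Nop56 (0.83, SE 0.11), Nolc1 (0.70, SE 0.12), Dkc1, the pseudouridine synthase of H/ACA snoRNPs (0.60, SE 0.12), and Nop58, of C/D snoRNPs (0.44, SE 0.10). The 1 lower gene was Nop10, an H/ACA core protein, at -0.73 (SE 0.18), named after its value was seen. Without KO replicate 2 the 7 calls fell to 4.

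Of 15 regulators of 5′TOP translation, 4 were higher and 0 lower, with a median of 0.36. Larp1 binds the cap and the tract of 5′TOP RNAs and represses their translation. It had 499, 532 and 543 CPM in KO and 275, 329 and 324 CPM in WT, a log2 fold change of 0.76 (SE 0.11; edgeR, adjusted p = 6.90e-05). Eif4ebp1, an inhibitor of the cap-binding protein eIF4E, had 191, 198 and 218 CPM in KO and 94.6, 91.5 and 99.8 CPM in WT (1.08, SE 0.13, adjusted p = 9.17e-06). Sesn2, a stress-induced inhibitor of mTORC1, had a log2 fold change of 2.37 (SE 0.38), and Eif4g1, the scaffold of cap-dependent initiation, had 0.63 (SE 0.09). Atf4, the transcription factor of the integrated stress response and a known activator of Eif4ebp1 and Sesn2, averaged 353 ± 14.8 CPM in KO and 91.7 ± 9.75 CPM in WT (SD, n = 3 each). The activity of these regulators and the translation of the host RNAs were not measured by these libraries.

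**Figure D4:**
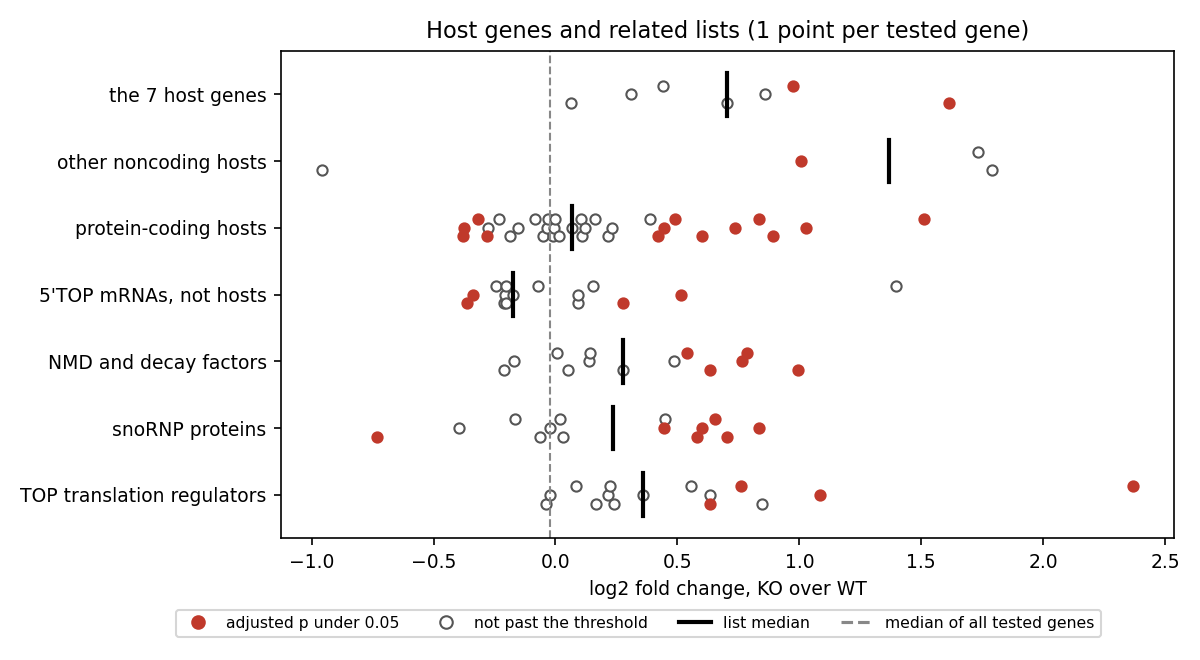
Log2 fold changes, KO over WT, of the tested genes of each list, with 1 point per gene (red, adjusted p under 0.05). Black bars are list medians and the dashed line is the median of all tested genes at -0.02. The 7 host genes lie to the right of the dashed line, with a median of 0.70, and the 5′TOP mRNAs that are not hosts have a median of -0.18.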

How the data were processed

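The authors deposited whole-number read counts per gene symbol and, beside them, RPKM values for 3 KO and 3 WT libraries of fetal liver HSCs. A stranded kit for very low input was used on total RNA, per the labels' protocols. Per the submitters' processing notes, TopHat, Cufflinks and the mm9 build were used; the counter, its strand setting and all versions were not given in the sources used here. Sequences, neighbours and transcripts came from RefSeq (GRCm38.p6) and GENCODE M21, and coordinates are of that build. Counts were tested with edgeR 4.0.16 in R 4.3.3 (TMM, filterByExpr, robust quasi-likelihood F test, group only), adjusted by Benjamini-Hochberg over 12204 genes; CPM used TMM library sizes, and the SE of a log2 fold change is its size over the square root of F. The procedure was tested on simulated data. The chi-square statistic between replicates lay between 22.4 and 44.8 per degree of freedom, above counting noise for every pair. Alternatives used DESeq2 1.42.0, limma 3.58.1, other scalings, no filter, length offsets, a Y-linked covariate (0 to 157 CPM over libraries), a replicate block and each library left out.

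The members, gene lists and tests were chosen with earlier results of these data known. Named were every member, the other noncoding hosts, hosted snoRNAs with counts, the 4 genes of smallest p in each other list, the nearest gene on each side of a member (1 neighbour is not reported here), the 5 genes most like the members, Uqcrfs1 and Atf4. Since reads carry no molecular identifiers, counts are not independent molecules.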

Additional observations from a re-analysis of the deposited data

How the results depend on the processing

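Snhg6 passed the threshold in 10 of 10 alternative fits over all libraries and in 5 of 6 that left out a library, and Snhg12 in 9 of 10 (the exception was limma on log2(RPKM + 0.1), adjusted p = 0.0513) and 4 of 6. The count of members called higher was 0 to 3 when each library was left out. The 1391 genes called became 583 with limma on log2(RPKM + 1), 560 with log2(RPKM + 0.1) and 712 to 1263 with a library left out. Under these 2 RPKM settings and with a library left out, calls were 0, 0 and 0 to 1 for other noncoding hosts, 7, 7 and 6 to 13 for protein-coding hosts, 1, 1 and 1 to 3 for 5′TOP mRNAs that are not hosts, and 1, 1 and 2 to 4 for NMD factors. For snoRNP proteins they were 4 to 7 with a library left out. The causes of these differences were not tested, but RPKM values are not counts and fewer libraries were fitted. Deviations from the group means were nearly uncorrelated between libraries of the same replicate number (0.02, 0.01 and -0.003). With 3 libraries per group this cannot show whether the samples were paired in the experiment. A replicate block gave 1341 genes, 2 members higher and 1 of the 5′TOP mRNAs that are not hosts. Of 702 values for 44 named genes under the alternatives, 620 kept their direction and call, 48 lost and 7 gained a call, and 27 changed sign, all of them in genes that were not called. Snhg8 was -0.11 and -0.11 with the RPKM settings and -0.29 to 0.31 with a library left out. Snord22 was 0.57 with length offsets and -0.38 to 0.27 with a library left out. Snora16a was -0.39 with limma-voom, -0.50 and -0.52 with RPKM, -0.33 with the replicate block and -0.33 with the Y-linked covariate, and -0.89 to 0.61 with a library left out. Zbtb37 was -0.0059 with upper-quartile factors, -0.076 with limma-voom, -0.00089 and -0.0098 with RPKM, -0.050 with the replicate block, -0.10 with the Y-linked covariate, -0.24 with length offsets, and -0.38 to 0.22 with a library left out. Mcmdc2 was -0.17 with log2(RPKM + 0.1). The scalings kept the median of all genes between -0.04 and -0.01. Counts per library were 32 to 573 for Snhg3, Snhg5, Snhg8 and Snhg12 and 941 to 2361 for Gas5; how much of the spread between libraries comes from depth was not tested.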
